A study of Mus musculus with 4 samples.

Results

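The genes described are 9 genes of mouse that encode calcium-binding proteins of the secretory pathway: calreticulin (Calr), calnexin (Canx), the CREC family members calumenin (Calu), Rcn1, Rcn2, Rcn3 and Sdf4, and the nucleobindins Nucb1 and Nucb2. They were taken by exact match of the gene name, and all 9 were found among the 45703 genes of the count table. The data are RNA-seq libraries of poly-A RNA from 4 cultures of cortical astrocytes, which form 1 group with no treatment contrast and were made to profile calcium signalling genes. The cells were dissected from the frontal cortex of wild-type CD-1 pups (an outbred stock) on postnatal day 4 and grown with serum, B27 and EGF (10 ng/ml). Dishes were seeded on day 6 in vitro at 200000 cells, and extraction followed after 3 more days, the final 1 h of it in serum-free Ham's medium. The labels name no sorting step; the design text calls the cultures biological replicates but not whether they came from separate animals, so that p-values measure the spread between these libraries, which may be partly technical.

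The endoplasmic reticulum (ER) is the main releasable calcium store of astrocytes, and proteins in its lumen hold calcium with low affinity and high capacity. Calreticulin and its membrane-bound relative calnexin are lectin chaperones that bind newly made glycoproteins, and calreticulin also buffers much of the calcium of the lumen. CREC proteins carry several EF-hands, the helix-loop-helix motif that binds calcium, and occur along the secretory pathway, with Sdf4 (Cab45) known as a Golgi protein. Nucleobindins are EF-hand proteins of the Golgi and the secretory route, and Nucb2 is also the precursor of the peptide nesfatin-1.

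What separates the members in the pathway may partly be written at the end of their coding sequences, which is shown for that reason. A signal of 4 residues at the carboxyl end of a soluble protein is recognised by the KDEL receptors, which return it from the Golgi to the ER. The last 30 coding bases, from GENCODE M21 transcripts (build GRCm38), are given 5′ to 3′, and capitals mark the last 4 codons and the stop codon where these codons encode a basic residue, a pair of acidic residues and then leucine or phenylalanine.
Calr: tcccctggccaagccAAGGATGAGCTGTAG
Calu: gaggccttagtacgaCATGATGAGTTCTGA
Rcn1: gacctgaccaaaaatCATGATGAACTTTGA
Rcn2: gacgactacttctatCATGACGAGCTTTAA
Rcn3: gacctgacaaggcacCATGATGAGCTCTGA
Sdf4: tatgcccgcaacgtgCATGAAGAGTTCTGA
Canx: ccaagaaacagaaagccacgaagagagtga
Nucb1: ctgccacagctggattcccagcatttataa
Nucb2: ggagagctgaagtttgagccacacacataa
The pattern was found in 6 of the 9 genes and not in Canx, Nucb1 or Nucb2. It is a match of letters, and recognition by the receptors was not measured. In Canx the coding end lies in the tail that faces the cytosol. Calu and Sdf4 have the phenylalanine form. In Sdf4 the acidic codons are GAA and GAG, which both encode glutamate, where the other 5 have an aspartate and a glutamate codon. Acidic residues, which carry low-affinity calcium binding, made up 20.5% of the codons of Nucb1 and 26.0% of those of Calu, the lowest and highest shares of the 9. The longest coding sequence was that of Canx (1776 bases) and the shortest that of Calu (948 bases).

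Promoters were searched for the ER stress response element ERSE, which is CCAAT and CCACG separated by any 9 bases, for ERSE-II, which is ATTGG and CCACG separated by any 1 base, for the core of the unfolded protein response element, written TGACGTGG, and for the CCAAT box alone, each on both strands. Both ERSE forms contain a CCAAT box on one strand, so that matches overlap. The RefSeq promoter table (GRCm38.p6), which runs from 250 bases before to 50 bases after a gene's start, held 8 of the 9 genes, without Rcn1. ERSE matched in Calr and Canx, 2 of the 8, and in 37 of all 27025 genes of the table (0.137%). ERSE-II matched in Nucb1, 1 of the 8, and in 12 of all genes (0.0444%). The unfolded protein response core matched in 0 of the 8 and in 0.714% of all genes, and the CCAAT box alone in 8 of 8 and in 41.1% of all genes. The 200 bases before the start are shown for the 3 genes with a match to either ERSE form, 5′ to 3′ on the gene's strand, with the match in capitals. They are Calr at chr8:84846932-84847131, Canx at chr11:50325674-50325873 and Nucb1 at chr7:45510409-45510608, all on the minus strand.
Calr: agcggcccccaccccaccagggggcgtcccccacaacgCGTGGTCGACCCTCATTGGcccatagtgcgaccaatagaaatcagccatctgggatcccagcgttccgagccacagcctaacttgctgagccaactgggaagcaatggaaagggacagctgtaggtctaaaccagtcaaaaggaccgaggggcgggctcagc
Canx: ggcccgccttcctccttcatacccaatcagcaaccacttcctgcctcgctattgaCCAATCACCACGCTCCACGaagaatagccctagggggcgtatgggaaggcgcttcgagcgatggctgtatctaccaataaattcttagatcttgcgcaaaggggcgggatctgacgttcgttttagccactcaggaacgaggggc
Nucb1: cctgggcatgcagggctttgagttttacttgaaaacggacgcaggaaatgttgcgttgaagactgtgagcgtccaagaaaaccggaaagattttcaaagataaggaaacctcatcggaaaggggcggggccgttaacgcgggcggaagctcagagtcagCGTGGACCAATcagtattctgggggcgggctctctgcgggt
The match lies 162 to 144 bases before the start in Calr, 145 to 127 bases before it in Canx and 41 to 31 bases before it in Nucb1. In Calr and Nucb1 it is the reverse complement of the letters above. A match describes letters only, and no binding was measured here.

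The libraries held 37300485 to 42369109 counts. Levels are given as CPM, the count scaled to the library's sum. All 12 astrocyte markers, among them Slc1a3, Glul and Gfap, were expressed, meaning at 1 CPM or more in every library, and their summed level was 9089 CPM in culture 4 and 9922 to 10138 CPM in cultures 1 to 3. This sum joins markers that moved unequally. In culture 4, 4 of the 12 were more than 20% below the mean of the other cultures (Gfap, S100b, Aqp4 and Gja1) and 0 more than 25% above it. Gfap had 779.7 CPM in culture 4 and 1498 to 1555 CPM in cultures 1 to 3, while Slc1a2 had 368 CPM and 285 to 311 CPM. Markers of other cells were present as well, with 5 of 7 for fibroblasts, 9 of 10 for microglia, 2 of 7 for endothelium, 3 of 7 for mural cells, 6 of 9 for the oligodendrocyte lineage and 6 of 9 for neurons expressed. In culture 4 and in cultures 1 to 3 the 7 fibroblast markers summed to 539.6 CPM and to 1364 to 1447 CPM, the 10 microglial markers to 83.3 CPM and to 126 to 134 CPM, and the 10 proliferation genes to 2262 CPM and to 1626 to 1634 CPM. The fibroblast sum came mostly from Col1a1 and Col1a2. By the same bounds 5 of 6 tested fibroblast markers and 9 of 10 microglial markers were lower in culture 4 and 1 of each was higher, which was Fbln1 (27.7 CPM in culture 4 and 10.1 to 10.7 CPM in the others) and Trem2 (3.87 CPM and 2.60 to 3.12 CPM). Of the proliferation genes 7 of 10 were higher and 0 lower. Of the tested markers of other lists, 2 of 3 endothelial, 1 of 4 mural, 2 of 6 oligodendrocyte lineage and 3 of 7 neuronal ones were lower. In the last 2 lists 1 each was higher. Over all 17105 genes 13.7% were lower and 11.7% higher in culture 4 by these bounds. The 7 mural markers summed to 2832 to 3077 CPM over the 4 cultures, nearly all from Acta2 and Tagln, while Myh11, Des, Abcc9 and Kcnj8 were under 1 CPM. The other lists were mixed, with some markers clearly present and others near 0. Olig1 and Olig2 averaged 1310 and 241 CPM, against 0.0554 CPM for Sox10 and 0.0061 CPM for Mog. Among neuronal markers Map2 and Stmn2 averaged 214 and 148 CPM, against 0.0734 CPM for Rbfox3, and among endothelial markers Kdr and Flt1 averaged 6.48 and 5.16 CPM, against 0.121 CPM for Cdh5 and 0.0059 CPM for Cldn5. Culture 4 thus stood apart from the other 3, and values that rest on it are given with and without it.

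All 9 genes were at 1 CPM or more in every library and passed the filter on low counts. Together they took 0.357%, 0.356%, 0.355% and 0.349% of the counts of cultures 1 to 4. Calr, Calu and Canx made up 29.3%, 23.3% and 20.4% of this sum and Nucb2 0.25% of it. Levels of different genes were compared per length, as RPKM (CPM divided by the gene's combined exon length in kilobases, as deposited). By RPKM the order was Calr, Calu, Canx, Rcn2, Nucb1, Rcn1, Rcn3, Sdf4 and Nucb2.

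**Figure D1:**
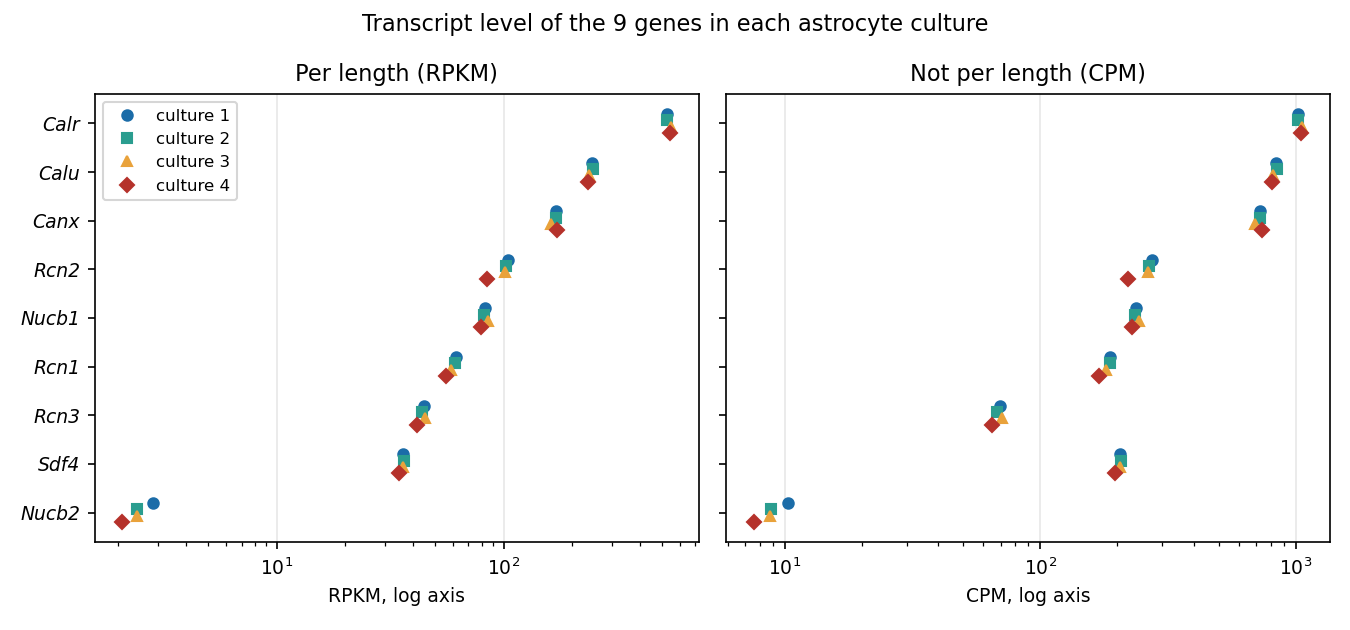
Transcript level of the 9 genes in cultures 1 to 4, as RPKM on the left and CPM on the right, both on log axes, with 1 point for each culture and genes ordered by mean RPKM. The 4 cultures lie close together for each gene except Rcn2, where culture 4 is lowest, and Nucb2, where culture 1 is highest and culture 4 lowest; Sdf4 stands above Rcn1 and Rcn3 in CPM and below them in RPKM.

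Among the lectin chaperones, Calr (GeneID 12317; GRCm38.p6 chromosome 8, 84842088 to 84846931, minus strand) had 525.7, 523.8, 546.7 and 542.1 RPKM in cultures 1 to 4. Canx (GeneID 12330; chromosome 11, 50293957 to 50325673, minus strand) had 169, 169.8, 162 and 172 RPKM. The ranges did not overlap, and Calr was above Canx in every library. Calr was the 57th and Canx the 350th gene of the table by mean RPKM. The log2 ratio of Calr to Canx was 1.67 ± 0.06 (SD, n = 4), and the edgeR quasi-likelihood test gave an adjusted p of 4.05e-09. The same test set each gene of the table against Calr, and 99.9% of 17104 genes differed from it in level, so that a difference between a member and another gene is no particular finding and its size is what the text reports. In that fit 44 genes lay above Calr and 17042 below it. Against Canx 99.6% of genes differed, with 315 above and 16718 below.

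Of the close relatives outside the set, the testis-type calreticulin Calr3 had 4.29 ± 0.42 RPKM, the calnexin relative Clgn (calmegin) 0.40 ± 0.05 RPKM and Calr4 0.05 ± 0.01 RPKM (SD, n = 4). The levels of Calr and Canx given above were higher than these in every library.

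In the CREC family the order was Calu, Rcn2, Rcn1, Rcn3 and Sdf4. Calumenin, an ER and secreted EF-hand protein (GeneID 12321; chromosome 6, 29348106 to 29376675, plus strand), had 245, 246, 238 and 236 RPKM in cultures 1 to 4, against 104.8, 102, 101 and 84.7 RPKM for Rcn2, a reticulocalbin of the ER lumen (GeneID 26611; chromosome 9, 56041845 to 56059083, plus strand). Culture 4 was the lowest of the 4 for both genes, by a small margin for Calu and by a large one for Rcn2. The log2 ratio of Calu to Rcn2 was 1.30 ± 0.12 (SD, n = 4; edgeR, adjusted p = 1.25e-07), with 1.48 in culture 4 and 1.23, 1.27 and 1.23 in cultures 1 to 3. Levels of 99.7% of genes differed from that of Calu and of 98.5% from that of Rcn2.

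Rcn1, the founding reticulocalbin of the ER lumen (GeneID 19672; chromosome 2, 105385948 to 105399319, minus strand), had 61.4, 61.1, 58.9 and 55.6 RPKM. Rcn3, which mice need for lung maturation at birth (GeneID 52377; chromosome 7, 45082914 to 45092322, minus strand), had 44.6, 43.5, 45.3 and 41.4 RPKM. Both were lowest in culture 4. Rcn1 lay above Rcn3 in 4 of 4 libraries, by a log2 ratio of 0.44 ± 0.05 (SD, n = 4; edgeR, adjusted p = 1.66e-05). Against Rcn1 98.4% and against Rcn3 97.9% of all genes differed.

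Sdf4, which takes part in the sorting of secreted cargo at the Golgi (GeneID 20318; chromosome 4, 155992843 to 156013610, plus strand), had 35.9, 36.5, 36.1 and 34.5 RPKM. It was the flattest of the CREC genes beside Calu, with a range over cultures of 1.06-fold. Its place depended on length, since its combined exons (5705 bases) were the longest of the 9 and those of Rcn3 (1562 bases) the shortest. Rcn3 was above Sdf4 by a log2 RPKM ratio of 0.29 ± 0.04 (SD, n = 4; edgeR, adjusted p = 0.000114), and below it by a log2 CPM ratio of -1.58 without the length term. Rcn1 was above Sdf4 by a log2 RPKM ratio of 0.73 ± 0.04 (edgeR, adjusted p = 3.37e-07) and below it by a log2 CPM ratio of -0.17 (edgeR, adjusted p = 0.00362). With GENCODE lengths both ratios kept the sign they had in RPKM. None of the 4 counts of Sdf4 was a whole number, while all 4 were for Rcn1, Rcn2, Rcn3 and Nucb2. Sdf4 overlaps Tnfrsf4, which had 0.23 ± 0.07 CPM, by 16 bases on the same strand; the source of the fractions was not tested. Against Sdf4 97.6% of all genes differed in level.

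The nucleobindins lay far apart. Nucb1 (GeneID 18220; chromosome 7, 45492674 to 45510408, minus strand) had 82.6, 81.7, 85.1 and 79.7 RPKM in cultures 1 to 4, and Nucb2 (GeneID 53322; chromosome 7, 116504352 to 116540588, plus strand) had 2.85, 2.43, 2.42 and 2.09 RPKM. Nucb1 was higher in every library, by 33.8-fold in RPKM (log2 ratio 5.08 ± 0.17, SD, n = 4; edgeR, adjusted p = 2.92e-09) and by 26.9-fold in CPM. The size depended on length, since the log2 ratio was 3.40 with the longest GENCODE transcripts (4853 bases for Nucb1 and 1913 for Nucb2). The deposited exon lengths were 2872 and 3617 bases. Nucb2 rested on 423, 353, 326 and 320 counts, so that counting error alone gives it a coefficient of variation of 5.31%, against 0.49% for Calr. It was the 11063rd gene of the table by CPM. Nucb1 lies wholly within the span of Tulp2 on the opposite strand, which had 0.07 ± 0.05 CPM. Against Nucb1 99.0% of all genes differed.

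The middle of the order was the least firm. Rcn2 was above Nucb1 in 4 of 4 libraries, with log2 RPKM ratios of 0.34, 0.32, 0.25 and 0.09 in cultures 1 to 4 (mean 0.25 ± 0.12, SD; edgeR, adjusted p = 0.00619). The ratio was smallest in culture 4, and without that culture it was 0.31 (edgeR, adjusted p = 1.9e-11). The call was lost, at ratios of like size, without culture 1 (0.22; edgeR, adjusted p = 0.0539), without culture 2 (0.23; edgeR, adjusted p = 0.0666) and with cultures 1 to 3 summed as 1 sample (0.20; edgeR, adjusted p = 0.41). It was also lost on the CPM scale, with no length term (0.11; edgeR, adjusted p = 0.16). Nucb1 was above Rcn1 by a log2 ratio of 0.47 ± 0.06 (SD, n = 4; edgeR, adjusted p = 8e-06). With the longest GENCODE transcript, which is 4853 bases for Nucb1 against 2872 bases of deposited exons, Nucb1 lay below Rcn1, with a log2 ratio of -0.45 (edgeR, adjusted p = 1.22e-05), and was not told apart from Rcn3 (log2 ratio 0.06; edgeR, adjusted p = 0.0962).

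Over all members 36 of 36 pairs differed, as did the 8 pairs of neighbours in the order, where 97.6% to 99.9% of all genes differed from each of the 8 higher members. The largest ratio was that of Calr to Nucb2, at 219.8-fold in RPKM (log2 ratio 7.78 ± 0.20, SD, n = 4). In CPM it was 118-fold, and with GENCODE lengths the log2 ratio was 6.69. The order was therefore set by differences of 1.19-fold (Rcn2 over Nucb1) to 14.7-fold (Sdf4 over Nucb2) between neighbours.

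**Figure D2:**
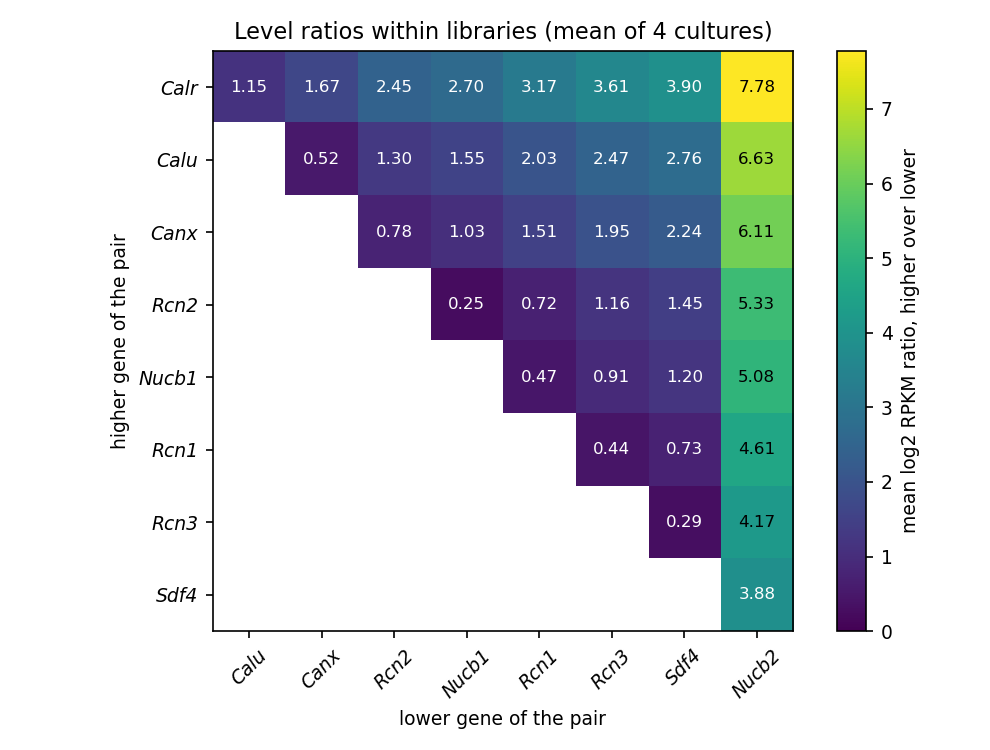
Mean log2 RPKM ratio of the higher gene (rows) over the lower gene (columns) for the 36 pairs, averaged over 4 cultures. Ratios to Nucb2 lie between 3.88 and 7.78, while those between neighbours from Rcn2 to Sdf4 lie between 0.25 and 0.47.

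Other genes of the same pathways give a scale for these levels. They were set against the members per deposited exon length only, and other lengths can move their places. Of 15 genes of the calnexin cycle, in which glucose trimming and re-addition govern binding to Calr and Canx, all were expressed. In the pair fits 0 of 15 were above Calr and 15 below it, and against Canx 2 were above and 13 below. Those above Canx were Pdia3 (ERp57, the disulfide isomerase that works with both lectins), at 284 ± 6.01 RPKM and 1.69-fold above it, and Selenof, a selenoprotein that binds the glucosyltransferase Uggt1, at 315 ± 6.40 RPKM and 1.87-fold above it. By mean CPM, with no length term, Selenof (476 CPM) lay below Canx (723 CPM) and Pdia3 (750 CPM) slightly above it. Ganab, the catalytic subunit of glucosidase II, had 83.3 ± 4.94 RPKM and Uggt1, the folding sensor, 17.3 ± 0.90 RPKM.

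Of 24 other ER chaperones and calcium buffers 21 were expressed and 22 were tested. Calr was above all 22 tested. Calu had 3 of the 22 above it, which were the chaperones Hsp90b1 (343 ± 12.3 RPKM) and Hspa5 (316 ± 5.69 RPKM) and the proline isomerase Ppib (295 ± 6.02 RPKM), 18 below it and 1 not told apart, the disulfide isomerase P4hb (235 ± 1.79 RPKM; edgeR, adjusted p = 0.218). For Canx these counts were 4 above (P4hb joined the 3), 16 below and 2 not told apart (Pdia6 and Manf; edgeR, adjusted p = 0.0707 and 0.416), for Rcn2 they were 7, 13 and 2, and for Sdf4 12, 8 and 2. Over all 17104 genes the counts above, below and not told apart were 44, 17042 and 18 for Calr and 186, 16867 and 51 for Calu. They were 315, 16718 and 71 for Canx, 581, 16272 and 251 for Rcn2, and 2054, 14646 and 404 for Sdf4. The members spread over the whole range of this list, and Nucb2 (2.45 ± 0.31 RPKM) lay near its lower end. By mean CPM Hsp90b1 (948 CPM) lay above Calu (827 CPM), Hspa5 (828 CPM) was level with it and Ppib (283 CPM) lay below it.

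All 7 retrieval and cargo receptor genes were expressed. By CPM the cargo receptors Tmed10 (77.2 ± 1.61 RPKM) and Surf4 (74.2 ± 3.72 RPKM) came first. The KDEL receptors Kdelr1, Kdelr2 and Kdelr3, which recognise signals of the type searched for above, had 91.2 ± 1.42, 56.3 ± 1.19 and 14.8 ± 1.49 RPKM. Kdelr1 was not told apart from Rcn2 (edgeR, adjusted p = 0.115) and Kdelr2 not from Rcn1 (edgeR, adjusted p = 0.152; Kdelr2 and Kdelr3 were picked after their values were seen), while 0 of the 7 were above Calu or Calr. Of the calcium pumps, channels and sensors of the ER, 11 of 14 were expressed and 12 tested. The ER calcium pump Atp2a2 had 89.7 ± 1.09 RPKM and was not told apart from Rcn2 (edgeR, adjusted p = 0.109), while Calu stood above all 12 tested. These near equalities hold per length only. By mean CPM Atp2a2 (514 CPM) lay above Rcn2 (256 CPM) and Kdelr1 (139 CPM) below it, and Kdelr2 (104 CPM) lay below Rcn1 (182 CPM). Of all 17104 genes 186 lay above Calu and 44 above Calr, so that counts of 0 above them are near the share over all genes.

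Calumenin binds the vitamin K-dependent carboxylase Ggcx and lowers its activity in studies of mammalian cells. Of 6 genes of that system 5 were expressed, with Gas6, a carboxylated ligand of TAM receptors, at 38.7 ± 1.51 RPKM, Pros1 at 28.2 ± 1.53 RPKM, Vkorc1l1 at 15.7 ± 0.43 RPKM and Ggcx itself at 3.01 ± 0.04 RPKM. All 6 were below Calu in the pair fit, as were 16867 of all 17104 genes. Of 10 collagen folding genes, all expressed, Serpinh1 (HSP47) had 251 ± 5.56 RPKM and was not told apart from Calu (edgeR, adjusted p = 0.138). Rcn3 had 2 of the 10 above it, Serpinh1 and Fkbp10 (74.0 ± 2.47 RPKM), and 7 below it. The 1 not told apart from Rcn3 was P4ha1 (43.3 ± 3.41 RPKM, edgeR adjusted p = 0.745). Of all 17104 genes 1640 lay above Rcn3 and 15100 below it.

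**Figure D3:**
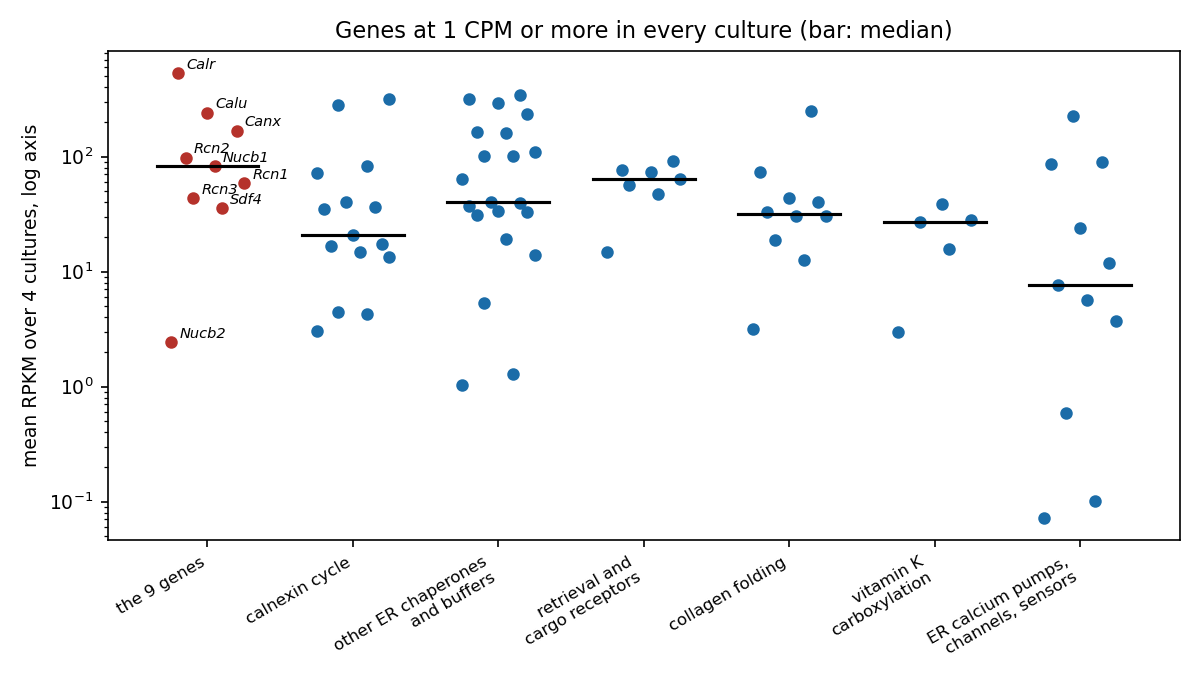
Mean RPKM over 4 cultures, on a log axis, of each expressed gene in the set of 9 (red) and in 6 related gene lists (blue), with a bar at the median of each. The medians are 82.3 RPKM for the 9 genes, 20.6 for the calnexin cycle, 40.4 for other ER chaperones and buffers, 64.0 for retrieval and cargo receptors, 27.3 for vitamin K carboxylation, 31.7 for collagen folding and 7.58 for ER calcium pumps, channels and sensors; Nucb2 lies far below the other 8 members.

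How far the members varied between cultures was asked next. In culture 4 and in cultures 1 to 3, Rcn2 had 221 CPM and 273, 266 and 264 CPM. Nucb2 had 7.55 CPM in culture 4 and 10.3, 8.80 and 8.74 CPM in cultures 1 to 3. Culture 4 was the lowest and culture 1 the highest for both genes. Rcn1 had 170.5 CPM in culture 4, against 188, 187 and 180.4 CPM, and Rcn3 had 64.7 CPM, against 69.7, 68.0 and 70.7 CPM. For Calu, culture 4 was lowest by a small margin, at 809 CPM in culture 4, against 839.7, 843 and 816 CPM. For Calr it lay within the range of the others, at 1053 CPM, against 1021, 1018 and 1062 CPM.

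Set against the mean of the other 3 cultures, culture 4 was lower for 7 of the 9 genes, with a median log2 ratio of -0.07, while 44.6% of all 17105 genes were lower in it and their median was 0.03. The log2 ratios were -0.30 for Nucb2, -0.28 for Rcn2, -0.12 for Rcn1, -0.10 for Rcn3, -0.07 for Sdf4, -0.06 for Nucb1, -0.04 for Calu, 0.03 for Calr and 0.05 for Canx. The sign for Calr depended on scaling, since it was -0.0031 with TMM factors and -0.0033 with DESeq2 size factors. A difference of more than 25% upward or 20% downward (the same fold either way) was found for 0 of the 9 genes in culture 4, where 25.4% of all genes passed it, and for 0 of 9 in each of cultures 1, 2 and 3, where 8.11%, 8.14% and 8.95% passed it. With TMM factors Nucb2 passed it in culture 4, at a log2 ratio of -0.33, and it did so with DESeq2 size factors. With raw library sums Nucb2 was as far above the others in culture 1 (0.30) as below them in culture 4 (-0.30). These are values of 1 library against 3, with no test. Most fibroblast and microglial markers, but not Fbln1 and Trem2, and 4 of 12 astrocyte markers were lower and 7 of 10 proliferation genes higher in the same culture, by the values given above, and their part in these differences was not tested. In such bulk libraries fewer cells of a type and less RNA per cell cannot be told apart.

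**Figure D4:**
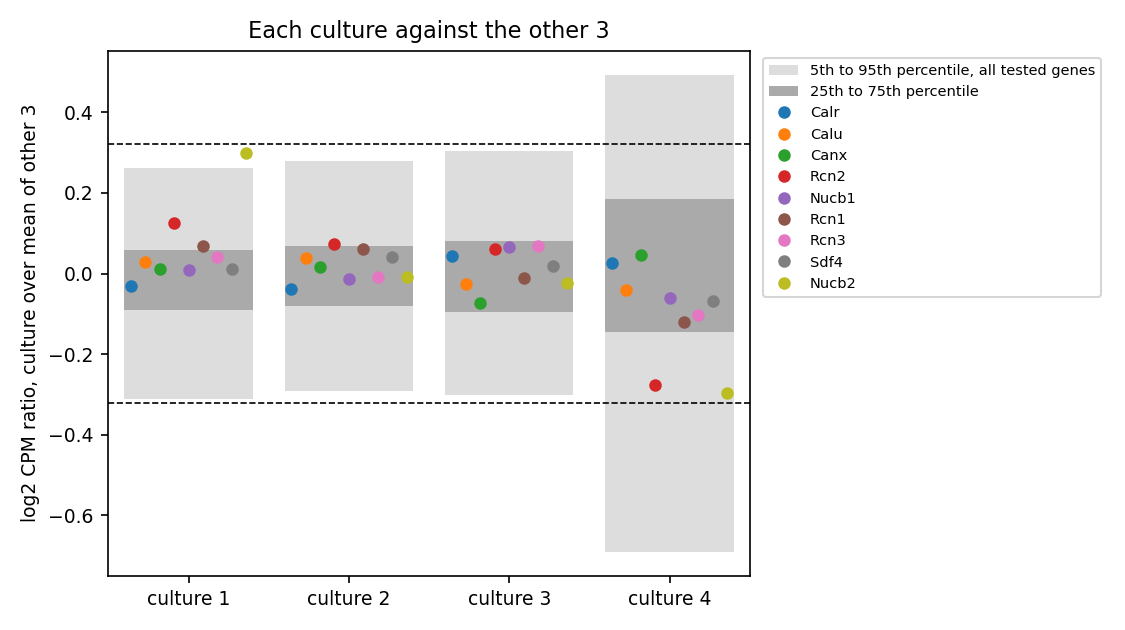
Log2 ratio of CPM in each culture over the mean of the other 3, for the 9 genes (coloured points) and for all 17105 tested genes (grey bands for the percentiles named in the key); dashed lines mark a level 25% higher or 20% lower. All points lie within the dashed lines, and in culture 4 Nucb2 (-0.30) and Rcn2 (-0.28) are the lowest of the 9.

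Measured against counting error alone, all 9 genes differed between the 4 libraries (Poisson likelihood ratio test with Benjamini-Hochberg adjustment over 17105 genes), where 53.1% of all genes did so. The strongest was Rcn2 (adjusted p = 4.41e-60) and the weakest Rcn3 (adjusted p = 0.0127). Such a test compares these libraries and no conditions, and covers counting error only. It finds smaller differences in genes with more counts, so shares over all genes are not a like comparison for highly expressed members. Rcn3 varied more than Calr (coefficient of variation 3.86% against 2.16%), but on 2637 to 2864 counts per library against 39621 to 44627. Within cultures 1 to 3 only Calr, Canx and Calu still passed, 3 of the 9, where 8.58% of all genes did. Rcn2 did not (Poisson test, adjusted p = 0.2). The 3 that passed were those with the most counts of the 9. Calr was higher in culture 3 than in cultures 1 and 2 (1062 against 1021 and 1018 CPM), and Canx was lower in it (696 against 727 and 728 CPM), as was Calu (816 against 839.7 and 843 CPM). The log2 ratio of Calr to Canx was accordingly 1.75 in culture 3 and 1.62 to 1.65 in the others. Leaving out culture 3 removed Canx and Nucb1 from the 9 (adjusted p = 0.104 and 0.0738), and leaving out culture 1 removed Nucb2 (adjusted p = 0.137).

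The biological coefficient of variation (BCV), edgeR's estimate of spread beyond counting error, which is drawn toward the trend over genes of like level, was 0.0615 for Calr, 0.0617 for Canx, 0.0633 for Calu, 0.0636 for Sdf4, 0.0642 for Nucb1, 0.0660 for Rcn3, 0.0704 for Rcn1, 0.0956 for Rcn2 and 0.13 for Nucb2. The median over all 17105 genes was 0.0941, and over the 2375 genes at 100 CPM or more it was 0.0682. Spread falls with level, as the plot of BCV by level shows, so the second value is the closer comparison for all but Rcn3 and Nucb2. Among the genes at 100 CPM or more 21.6% had a lower BCV than Calr and 86.1% a lower one than Rcn2. Without culture 4 the BCV was 0.0256 for Calr and 0.0243 for Rcn2, against a median of 0.0255 over all genes, so that the excess of Rcn2 rests on culture 4. Nucb2 fell from 0.13 to 0.0423 without culture 4. There 92.9% of all genes had a lower BCV, but that share covers genes of every level and Nucb2 had few counts. Without culture 4 Nucb2 did not differ between libraries beyond counting error (Poisson test, adjusted p = 0.209).

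**Figure D5:**
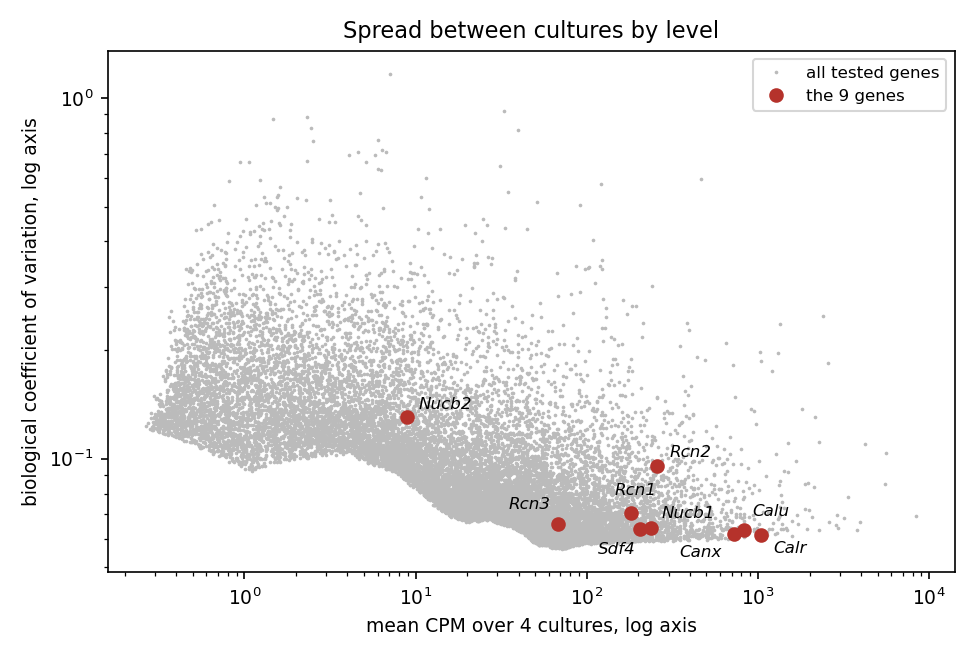
Biological coefficient of variation between the 4 cultures against mean CPM, both on log axes, for all 17105 tested genes (grey) and the 9 genes (red). Calr, Canx, Calu, Sdf4 and Nucb1 lie between 0.0615 and 0.0642, below the median of highly expressed genes (0.0682), while Rcn2 (0.0956) lies above most genes of its level.

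For the members with the widest range over cultures, the genes with the most similar pattern were looked up among 10730 genes at 10 CPM or more, by the Euclidean distance of their log2 deviations from the mean over the 4 cultures. Nucb2, with the widest range, was under that minimum. The 3 genes closest to Rcn2 were Atp6v0a2 (distance 0.0048), the IP3 receptor gene Itpr2 (0.0111) and Magi2 (0.0163), where the median distance over all genes was 0.297. Itpr2 had 40.7 CPM in culture 4 and 50.6, 49.5 and 48.7 CPM in cultures 1 to 3. Those closest to Rcn1 were Tm9sf3 (0.0051), Ttc3 (0.0057) and Snx14 (0.0082), where the median was 0.194. The closest of so many genes lie far below the median by the way they are picked. For the other members searched the closest gene lay at 0.0021 (Calu) to 0.0079 (Rcn3). The likeness rests on 4 libraries. With raw library sums, culture 4 stood farthest from the others for Rcn2 and Rcn1 (log2 ratios -0.28 and -0.12). For Calr, Canx and Nucb1 culture 3 did (0.04, -0.07 and 0.07).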

How the data were processed

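Per the submitters' processing notes, the tools were STAR 2.7.2b, featureCounts 1.6.4 (Subread), cutadapt 1.17 and bcl2fastq 2.20.0.422, with the build GRCm38.p6; for featureCounts, a strand option is not given in the sources. Libraries were made with a stranded kit from 500 ng of RNA (integrity number above 9.3) with 14 PCR cycles, per the labels' protocols. The deposited table holds estimated counts, since 31.7% of values above 0 were not exactly whole, and these were rounded for tests. The table also gives each gene's combined exon length, per the file headers, which turned CPM (from raw library sums) into RPKM. One read was 0.0236 to 0.0268 CPM. Intervals of counting error are a lower limit, as PCR copies were not told apart.

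Levels were compared with edgeR 4.0.16 (R 4.3.3; quasi-likelihood, two-sided). Each gene passing edgeR's default filter (17105 genes) was paired with a member, with terms for library and gene and an offset of library sum times exon length. P-values were adjusted over all genes by the Benjamini-Hochberg method at 0.05, and a pair of members was read from the fit on its higher gene. BCV used TMM scaling. DESeq2 1.42.0 and limma 3.58.1 were alternatives, as were other lengths, scalings and filters and leaving out each culture. The tests were tried on simulated data. For the pair fit the simulated counts of the member were set to their means. Noise of the member, which all its pairs share in the real data, was thus left out, and the trial cannot speak to it. Named genes were the 9 members, at most 4 of the highest CPM in each list, genes above a member where these were counted, and the 3 genes of most similar pattern. Members and lists were chosen with earlier results of these data known.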

Additional observations from a re-analysis of the deposited data

Results flagged for a closer look

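The CPM of Rcn2 over the 4 cultures was flagged because 1 library stood far from the rest: the gap between culture 4 (221 CPM) and the nearest other culture (264 CPM) was 0.83 of the whole range, just above Dixon's limit for 4 samples. Chance flags about 1 in 20 groups, and 1 of 9 genes was flagged here. Most fibroblast and microglial markers and 4 of 12 astrocyte markers were also lower in culture 4, and 7 of 10 proliferation genes higher, and their part in the value of Rcn2 was not tested. Over all genes 13.7% were lower and 11.7% higher in that culture by the same bounds.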

How the results depend on the processing

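Of 36 pairs of members, 35 differed with GENCODE lengths, with no length term and with cultures 1 to 3 summed, and 36 with DESeq2, with limma, with no filter and with no replicate block (no library term); 35 to 36 did with 1 culture left out. No paired analysis between groups was possible because there is 1 group. The ratios that reversed were Nucb1 over Rcn1 with GENCODE lengths (-0.45), and Rcn1 over Sdf4 (-0.17) and Rcn3 over Sdf4 (-1.58) without the length term, which follows from the lengths used. Of the 8 neighbour pairs, 7 to 8 kept direction and call with 1 culture left out, 7 with GENCODE lengths and 6 with no length term. With 1 culture left out, 3 to 9 members differed beyond counting error, the fewest without culture 4. Over all genes the share was 8.58% without culture 4 and 49.8% to 52.4% without another culture. The median BCV of the members with 1 culture left out was 0.0246 to 0.0803, against 0.0642 with all cultures. Over all genes the median was 0.0255 to 0.113, against 0.0941 with all cultures. The number of member values more than 25% above or 20% below the other cultures was 1 with TMM factors and 1 with DESeq2 size factors, against 0 with raw library sums. The value was that of Nucb2 in culture 4, where 25.1%, 25.1% and 25.4% of all genes passed these bounds with the same scalings. Precision is limited by 4 libraries, by the length assigned to each gene and, for Nucb2, by counts of 320 to 423.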

Other observations

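Casq1, the calsequestrin known as the calcium buffer of skeletal muscle, was singled out after its values were seen. It had 154 CPM in culture 4 and 114, 105 and 109 CPM in cultures 1 to 3, against 2.63 ± 0.60 CPM for Casq2 (SD, n = 4), and was not told apart from Rcn1 in RPKM (edgeR, adjusted p = 0.368). Casq1 was higher in culture 4, where Rcn2 and Nucb2 were lower. It overlaps Gm17224 (2.56 ± 0.29 CPM) on the opposite strand and lies next to Pea15a on the same strand, which had 8398 ± 293 CPM, and the part of either in its counts was not tested.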
